A study of Homo sapiens with 21 samples.

Results

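The transcriptional effect of the high dose of THZ531, a covalent inhibitor of CDK12 and CDK13, was assessed in Hs578T cells, a human triple-negative breast cancer (TNBC) cell line. The 3 libraries treated with THZ531 (1.0 μM) were compared with the 3 libraries treated with the solvent DMSO, which are 6 of the 21 libraries of the series, and every gene that passed a filter on low counts was included, 16036 of the 28395 genes in the count table. All cells were wild type (WT) by the labels, RNA was isolated after 8 h, and polyadenylated RNA was sequenced in libraries that keep no strand. The 6 libraries held 102203282 to 112229052 counts each. The other groups of the series received THZ531 (0.1 μM), whose values are given beside some genes, or lapatinib or nilotinib with or without that low dose. A single cell line and a single time limit the comparison, and no untreated cells without DMSO were analysed here.

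CDK12 and CDK13 each pair with cyclin K and phosphorylate the C-terminal domain of RNA polymerase II while it travels along a gene. CDK12 is best known for sustaining full-length transcription of DNA repair genes, because polymerases that lack its activity tend to terminate at polyadenylation sites inside introns. Messenger RNAs differ widely in stability, which sets how fast the level of each follows a change in its transcription.

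The labelled cell type was checked against marker genes. The 7 mesenchymal markers VIM, FN1, CDH2, ZEB1, SNAI2, COL1A1 and SPARC together made up 20134 to 24329 CPM (counts divided by the library total and multiplied by 1000000) in the DMSO libraries and 25094 to 27371 CPM with THZ531 (1.0 μM). A set of 15 epithelial and luminal markers together made up 138 to 141 CPM in DMSO and 153 to 166 CPM with THZ531, of which 11 stayed under 1 CPM in every library. PGR, the progesterone receptor gene, had no count in any of the 6 libraries. KRT8 and KRT18, keratin genes of luminal cells, and the transcription factor gene GATA3 had the clearest counts of these markers. A wider list of 18 genes, which adds KRT5, KRT14 and XBP1, made up 248 to 259 CPM in DMSO and 184 to 205 CPM with THZ531, so the direction of the sum turned with XBP1. Of these 18 genes 12 passed the count filter, of which 4 fell and 5 rose with high-dose THZ531 (median log2 FC -0.10), and the levels of both groups were those of mesenchymal cells.

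High-dose THZ531 changed most of the transcriptome. Of the 16036 genes, 5902 (36.8%) were lower and 5301 (33.1%) were higher at an adjusted p under 0.05 in edgeR's quasi-likelihood test, and 4833 (30.1%) passed in neither direction. The changes were asymmetric in size. At an additional log2 fold change (log2 FC) beyond 1 in either direction, 3027 genes (18.9%) were strongly downregulated and 925 (5.77%) strongly upregulated. A residual level under 25% of DMSO was left for 718 of the downregulated genes, and 420 of the upregulated genes were over 4-fold higher. Strongly downregulated genes were mostly protein-coding (92.0%) with a median level of 13.4 CPM in DMSO, whereas only 49.7% of the strongly upregulated genes were protein-coding, with a median of 0.0972 CPM. Libraries without strand cannot separate a gene from one that overlaps it, which applies to 60.9% of the tested genes, and overlaps are named for some genes. Among genes described further on, ATRIP overlaps TREX1, CCNE2 overlaps INTS8 and NDUFAF6, CCNK overlaps SETD3 and CCDC85C, DDIT3 overlaps MARS1, IFIT5 overlaps LIPA, MDM2 overlaps the carboxypeptidase M gene, CCNF overlaps MIR6767, EGFR overlaps EGFR-AS1, and SLX4, FANCD2, ABCG2, BBS12 and CDKN1A overlap noncoding, pseudogene or other loci. All 3 THZ531 libraries lay below all 3 DMSO libraries for 37.8% of genes and above them for 34.4%.

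These values are relative to the rest of each library, and no added reference RNA is named in the methods. TMM scaling, which was used for all CPM values and log2 FC from here on, set the median log2 FC over all genes to -0.01 and gave 76.6% downregulated genes among the strongly changed ones. Upper-quartile scaling gave 62.2%, and scaling to mitochondrially encoded mRNAs, which a separate polymerase transcribes, gave 91.6% with a median log2 FC over all genes of -0.55. By the adjusted p alone, TMM gave 5902 lower and 5301 higher genes, upper-quartile scaling 4891 and 6642, and mitochondrial scaling 8424 and 697, so the balance of the directions depends on the reference. Modest increases between 0 and about 0.55 on the log2 scale therefore change sign with the reference, and gene lists are given with both. Where a list had 0 higher genes with mitochondrial scaling in edgeR's test, the number was also 0 at an unadjusted p under 0.05, except for 1 gene each of the BCL2 family and the proteasome. Medians of gene lists from -0.17 to -0.01 likewise turn positive with upper-quartile scaling, under which the median log2 FC over all genes was 0.19. Mitochondrially encoded mRNAs took 1.25% ± 0.0895 of counts in DMSO and 1.53% ± 0.219 with THZ531 (1.0 μM) (mean ± SD, n = 3), with 1.78% in replicate 1 and 1.36% in replicate 3 of the latter. Each log2 FC is given with its standard error (SE) from the fit, with n = 3 libraries per group.

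KRCC1, a little-studied gene for a lysine-rich coiled-coil protein, showed the largest fall among clearly expressed protein-coding genes that overlap no other gene. Its level was 35.3, 30.5 and 35.0 CPM in the DMSO libraries and 1.93, 2.24 and 2.09 CPM in the THZ531 libraries. The 2 groups were far apart and the spread within each was small, and KRCC1 was 16.1-fold lower (log2 FC -4.01 ± 0.12, edgeR adjusted p = 3.4e-15). KRCC1 spans 28.6 kb at chr2:88027205-88055783 (GRCh38.p14). PRR14L measured 21.4, 27.8 and 20.7 CPM in DMSO and 3.09, 1.16 and 2.16 CPM with THZ531 (log2 FC -3.45 ± 0.24). ZC3H4, which encodes a zinc finger protein that restricts unproductive noncoding transcription, fell from 37.6, 54.3 and 40.0 CPM to 5.94, 3.91 and 4.64 CPM (log2 FC -3.19 ± 0.23). In both genes every treated library lay far under every control.

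The other genes with the largest falls under the same limits were of diverse function. PARS2, the mitochondrial prolyl-tRNA synthetase gene, and CASP8AP2, which encodes a protein of histone mRNA transcription, fell with log2 FC of -3.27 ± 0.13 and -3.23 ± 0.22. The zinc finger genes ZSCAN20 (log2 FC -3.41 ± 0.16), ZNF564 (log2 FC -3.25 ± 0.16) and ZNF839 (log2 FC -3.12 ± 0.16) were among them. FSAF1 (log2 FC -3.33 ± 0.11) and C2orf42 (log2 FC -3.27 ± 0.12) completed the group. These 10 genes span 7.6 to 68.8 kb. Only 24 of the 611 tested genes of 300 kb and over overlap no other gene, so the rule itself left out most very long genes. Among the largest losses in absolute CPM were the abundant mRNAs of SRSF3 (log2 FC -1.16 ± 0.081), KPNA2 (log2 FC -0.64 ± 0.072), STC2 (log2 FC -1.04 ± 0.13) and TRAM2 (log2 FC -1.05 ± 0.11), which encode a splicing factor, a nuclear import receptor, a secreted hormone and a translocon-associated protein.

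**Figure D1:**
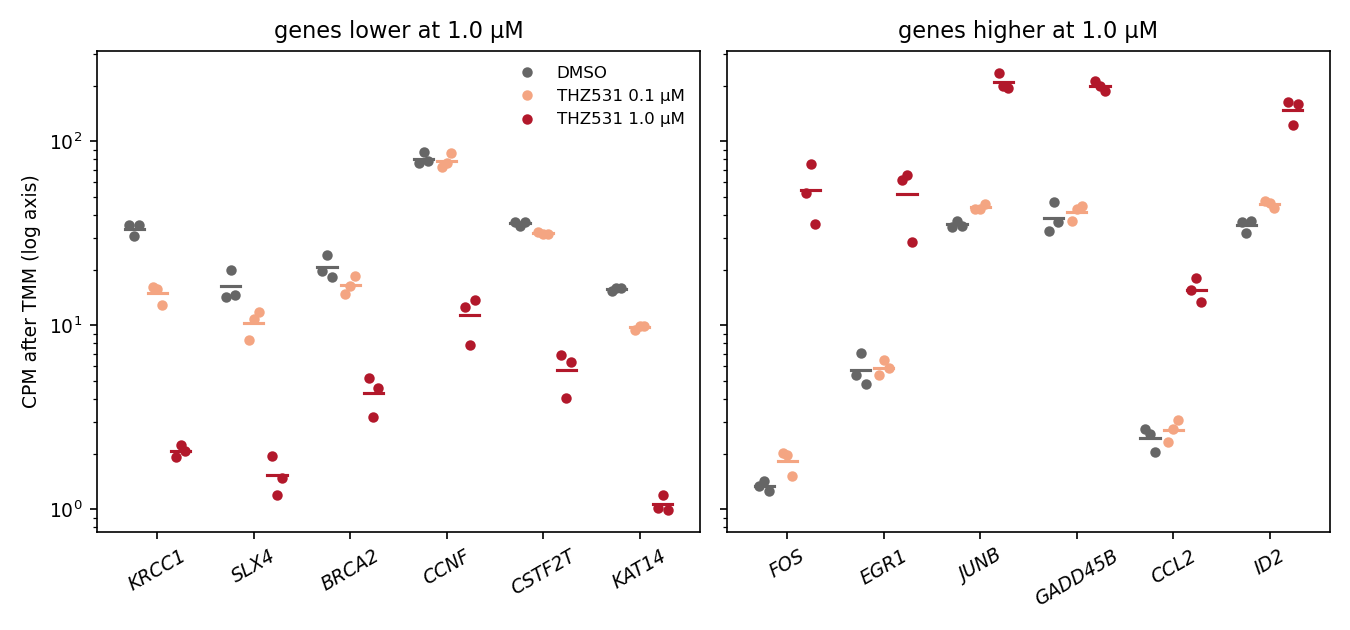
CPM after TMM scaling on a log axis for 12 genes in the 3 DMSO, 3 THZ531 (0.1 μM) and 3 THZ531 (1.0 μM) libraries (points) with the group mean (line). For the downregulated genes on the left all 1.0 μM points lie below the DMSO points, and for the upregulated genes on the right they all lie above them, while most 0.1 μM points lie near DMSO.

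Promoters of 5 of the upregulated genes described further on and of KRCC1 are shown here, 130 bases before to 20 bases from the RefSeq gene start (GRCh38.p14), because the genes that rose with high-dose THZ531 include classical TATA-box genes. Capitals mark TATAAA, or in EGR1 the CArG boxes that serum response factor binds.
FOS, chr14:75278698-75278847, plus strand: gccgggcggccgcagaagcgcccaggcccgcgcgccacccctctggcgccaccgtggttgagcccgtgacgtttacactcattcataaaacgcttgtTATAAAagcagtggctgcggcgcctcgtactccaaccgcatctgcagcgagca
EGR1, chr5:138465349-138465498, plus strand: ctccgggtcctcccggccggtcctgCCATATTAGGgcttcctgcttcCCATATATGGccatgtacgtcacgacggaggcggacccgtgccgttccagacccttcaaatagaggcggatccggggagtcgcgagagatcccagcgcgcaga
JUNB, chr19:12791356-12791505, plus strand: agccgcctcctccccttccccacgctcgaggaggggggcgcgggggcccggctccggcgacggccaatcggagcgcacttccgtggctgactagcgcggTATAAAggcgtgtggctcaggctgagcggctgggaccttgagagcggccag
GADD45B, chr19:2475997-2476146, plus strand: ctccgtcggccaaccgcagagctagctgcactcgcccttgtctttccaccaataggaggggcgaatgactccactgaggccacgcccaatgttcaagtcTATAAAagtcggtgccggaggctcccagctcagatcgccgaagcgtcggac
H3C1, chr6:26020321-26020470, plus strand: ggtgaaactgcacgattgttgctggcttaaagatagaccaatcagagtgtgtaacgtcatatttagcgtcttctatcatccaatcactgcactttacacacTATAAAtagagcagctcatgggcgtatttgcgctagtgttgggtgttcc
KRCC1, chr2:88055764-88055913, minus strand: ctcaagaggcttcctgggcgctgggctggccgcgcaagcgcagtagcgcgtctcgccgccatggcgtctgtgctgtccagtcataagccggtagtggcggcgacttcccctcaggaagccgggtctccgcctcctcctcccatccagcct
TATAAA began 33 bases before the start in FOS, 31 in JUNB and in GADD45B, and 29 in H3C1. The 2 CArG boxes of EGR1 began 105 and 83 bases before its start, and KRCC1 held neither motif. The printed genes were picked as examples and do not represent the upregulated or downregulated genes. In promoter windows of 300 bases, searched on both strands, TATAAA occurred in 6.53% of the 12271 tested genes with a sequence. Over all 27305 promoters, tested or not, the share was 11.95%, close to that of strongly upregulated genes. TATAAA occurred in 128 (5.30%) of the 2413 strongly downregulated and in 62 (11.5%) of the 538 strongly upregulated genes, so most upregulated genes lacked it. Among the 340 strongly upregulated protein-coding genes the share was 14.7%, and no share over all tested protein-coding genes was taken. Upregulated genes of very low level can pass the count filter through the treated libraries alone. Replication-dependent histone genes, with TATAAA in 25 of 35 windows, were not taken out of these shares. These are shares of letters in a window, with no measure of factor binding. The CArG box occurred in 1.11% of tested genes and in 1.04% and 1.67% of strongly downregulated and upregulated genes.

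The genes for the transcriptional CDKs themselves were among the downregulated mRNAs. Of 20 transcriptional CDK, cyclin and regulator genes, 13 fell and 3 rose, 65.0% and 15.0% beside 36.8% and 33.1% of all genes. Their median log2 FC was -0.41 beside -0.01 over all genes, and mitochondrial scaling gave 17 lower and 0 higher. CDK12 measured 48.8, 57.5 and 49.3 CPM in DMSO and 29.6, 21.1 and 25.3 CPM with THZ531 (1.0 μM), so that all treated libraries were lower (log2 FC -1.04 ± 0.14, edgeR adjusted p = 2.2e-06). CDK12 overlaps RNU6-233P and a further annotated locus, and CDK13, which overlaps no other gene, fell with a log2 FC of -0.82 ± 0.17. CCNK, which encodes cyclin K, fell with a log2 FC of -0.35 ± 0.12. It did not pass without DMSO replicate 2 (-0.28), without THZ531 replicate 2 (-0.23) or with upper-quartile scaling (-0.15). CDK9, the kinase gene of the elongation factor P-TEFb, and MEPCE, whose product caps the 7SK RNA that restrains P-TEFb, fell with log2 FC of -0.93 ± 0.13 and -1.83 ± 0.13. HEXIM1, the gene of the inhibitor protein bound to 7SK, rose with a log2 FC of 0.56 ± 0.24 under TMM scaling, but was at -0.0048 with mitochondrial scaling, and it passed the test without THZ531 replicate 2 but not without any other single library (log2 FC 0.32 to 0.59).

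RNA polymerase II and elongation factor genes changed in both directions under TMM scaling. Of 31 genes, 8 fell and 12 rose, 25.8% and 38.7% beside 36.8% and 33.1% of all genes. Their median log2 FC was -0.049, with 17 lower and 0 higher under mitochondrial scaling. Only 1 fell strongly (3.23% beside 18.9% of all genes). POLR2D, a small subunit gene, fell strongly (log2 FC -1.89 ± 0.094). POLR2A, which encodes the catalytic subunit carrying the C-terminal domain, rose with TMM scaling (log2 FC 0.82 ± 0.19), but did not pass with mitochondrial scaling (0.27). The elongation factor genes LEO1 (log2 FC -0.999 ± 0.18), NELFA (log2 FC -0.92 ± 0.16) and AFF4 (log2 FC -0.53 ± 0.15) fell.

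Genes of mRNA 3′ end formation were mostly lower. Of 37 cleavage, polyadenylation and Integrator genes, 25 fell, 14 of them strongly (37.8% beside 18.9% of all genes), and 8 rose, with a median log2 FC of -0.81 (mitochondrial scaling, 28 lower and 0 higher). The cleavage stimulation factor gene CSTF2T measured 36.6, 34.6 and 36.3 CPM in DMSO and 6.91, 4.02 and 6.32 CPM with THZ531. All treated libraries lay far under all controls (log2 FC -2.64 ± 0.16, edgeR adjusted p = 2.1e-11). CSTF2T has a single exon and overlaps PRKG1. CPSF7 and CSTF1, 2 further subunit genes of the cleavage machinery, fell with log2 FC of -2.41 ± 0.11 and -2.40 ± 0.13. INTS5, a subunit gene of the Integrator complex, fell by a similar amount (log2 FC -2.27 ± 0.11). PCF11, the gene of a termination factor that binds the polymerase C-terminal domain, fell with a log2 FC of -1.62 ± 0.16. INTS1 rose (0.72 ± 0.10), and so did CPSF6 (log2 FC 0.66 ± 0.059) and CPSF1 (log2 FC 0.60 ± 0.079), but these 3 genes did not pass with mitochondrial scaling (0.19, 0.12 and 0.061).

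Splicing genes changed in both directions under TMM scaling, at shares near those of all genes (38.7% and 35.5% lower and higher beside 36.8% and 33.1%). Of 31 SR protein, hnRNP and splicing kinase genes, 12 fell and 11 rose (median log2 FC -0.052, with 20 lower and 0 higher under mitochondrial scaling). The falls were led by SR protein and kinase genes, namely SRSF3 (log2 FC -1.16 ± 0.081), CLK4 (log2 FC -1.15 ± 0.14), SRSF10 (log2 FC -0.81 ± 0.074) and SRSF1 (log2 FC -0.74 ± 0.068). The rises were led by hnRNP genes, with HNRNPA2B1 (log2 FC 0.66 ± 0.052) and HNRNPC (log2 FC 0.66 ± 0.082), which did not pass with mitochondrial scaling (0.12 and 0.12). CLK1 did not pass the test (log2 FC 0.13 ± 0.12, edgeR adjusted p = 0.34), but passed as higher with upper-quartile scaling (0.33) and without THZ531 replicate 2 (0.30).

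DNA repair genes, the class most often linked to CDK12, were lowered broadly but unevenly. Of 34 homologous recombination and Fanconi anemia genes, 24 fell and 5 rose, 70.6% and 14.7% beside 36.8% and 33.1% of all genes. Strong falls numbered 14 (41.2% beside 18.9%), and the median log2 FC was -0.72 (mitochondrial scaling, 29 lower and 0 higher). BRCA2, a mediator gene of homologous recombination, measured 19.9, 24.03 and 18.3 CPM in DMSO and 5.21, 3.18 and 4.57 CPM with THZ531 (log2 FC -2.26 ± 0.18, edgeR adjusted p = 1.3e-09). BRCA1 measured 20.4, 23.3 and 20.7 CPM and 11.7, 13.6 and 9.26 CPM (log2 FC -0.90 ± 0.12). BRCA2 was left at 20.8% and BRCA1 at 53.6% of the DMSO mean, and both overlap other annotated loci in libraries without strand. SLX4, the scaffold gene of structure-specific nucleases, measured 14.2, 19.9 and 14.7 CPM and 1.94, 1.19 and 1.49 CPM (log2 FC -3.40 ± 0.23).

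The helicase gene BLM (log2 FC -2.57 ± 0.16), the single-exon Fanconi gene FANCF (-2.53 ± 0.15) and the recombination gene XRCC2 (-2.38 ± 0.18) fell strongly as well. FANCD2 did not pass the test, with 40.2, 38.6 and 38.5 CPM in DMSO and 38.4, 38.6 and 36.5 CPM with THZ531 (log2 FC -0.047 ± 0.065, edgeR adjusted p = 0.54), but passed as lower with mitochondrial scaling (-0.59) and with library size alone (-0.31). FANCA, FANCI and RBBP8 rose under TMM scaling (log2 FC 0.54 ± 0.064, 0.36 ± 0.064 and 0.39 ± 0.064), but not with mitochondrial scaling (-0.00064, -0.18 and -0.16).

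Of 26 DNA damage checkpoint genes, 19 fell and 3 rose, 73.1% and 11.5% beside 36.8% and 33.1% of all genes. Their median log2 FC was -0.84 (mitochondrial scaling, 23 lower and 0 higher). The partner gene of the ATR kinase, ATRIP, measured 18.2, 18.2 and 19.6 CPM in DMSO and 2.38, 1.96 and 2.54 CPM with THZ531 (log2 FC -3.03 ± 0.10). ATR itself fell with a log2 FC of -0.89 ± 0.064, and its activator gene ETAA1 with -2.56 ± 0.22. The effector kinase genes CHEK1 (log2 FC -0.54 ± 0.070), CHEK2 (-0.44 ± 0.13) and WEE1 (-0.80 ± 0.14) fell less, and CHEK2 did not pass with upper-quartile scaling (-0.24). CDC25B, a phosphatase gene of mitotic entry, fell strongly (log2 FC -1.73 ± 0.086). ATM, the kinase gene of the double-strand break response, rose with a log2 FC of 0.54 ± 0.070 with TMM but was at -0.012 with mitochondrial scaling. TIMELESS (log2 FC 0.77 ± 0.065) and PARP1 (log2 FC 0.71 ± 0.090) rose under TMM and did not pass the test with mitochondrial scaling, at 0.23 and 0.17 with the latter.

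Cell cycle genes changed in both directions under TMM scaling. Of 50 replication genes, 23 fell and 18 rose, 46.0% and 36.0% beside 36.8% and 33.1% of all genes (median log2 FC -0.15, with 32 lower and 0 higher under mitochondrial scaling). GINS1, a subunit gene of the replicative helicase, and CCNE2, encoding cyclin E2, fell with log2 FC of -2.26 ± 0.12 and -2.21 ± 0.16. The origin recognition genes ORC2 (log2 FC -1.85 ± 0.082) and ORC5 (-1.84 ± 0.088) and the loading factor gene CDC6 (-0.76 ± 0.055) fell too. The nucleotide synthesis gene TYMS (log2 FC 0.82 ± 0.083) and the polymerase gene POLA1 (log2 FC 0.70 ± 0.068) rose, but did not pass with mitochondrial scaling (0.28 and 0.16). PCNA, the sliding clamp gene, rose with a log2 FC of 0.50 ± 0.088 with TMM but was at -0.047 with mitochondrial scaling.

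Of 35 mitosis genes, 20 fell and 6 rose, 57.1% and 17.1% beside 36.8% and 33.1% of all genes. Strong falls numbered 11 (31.4% beside 18.9%). The median log2 FC was -0.45, with 29 lower and 0 higher under mitochondrial scaling. CCNF, encoding the F-box protein cyclin F, measured 76.2, 87.8 and 78.1 CPM in DMSO and 12.6, 7.83 and 13.8 CPM with THZ531. The highest treated library lay far under the lowest control (log2 FC -2.82 ± 0.18, edgeR adjusted p = 3.4e-11). The kinase genes AURKB (log2 FC -2.01 ± 0.073) and PLK1 (-1.27 ± 0.094) and the cyclin genes CCNA2 (-1.84 ± 0.13) and CCNB1 (-1.44 ± 0.075) fell. The condensin gene SMC2 (log2 FC 0.65 ± 0.11) and the spindle midzone gene PRC1 (log2 FC 0.66 ± 0.061) rose, but did not pass with mitochondrial scaling (0.10 and 0.11).

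**Figure D2:**
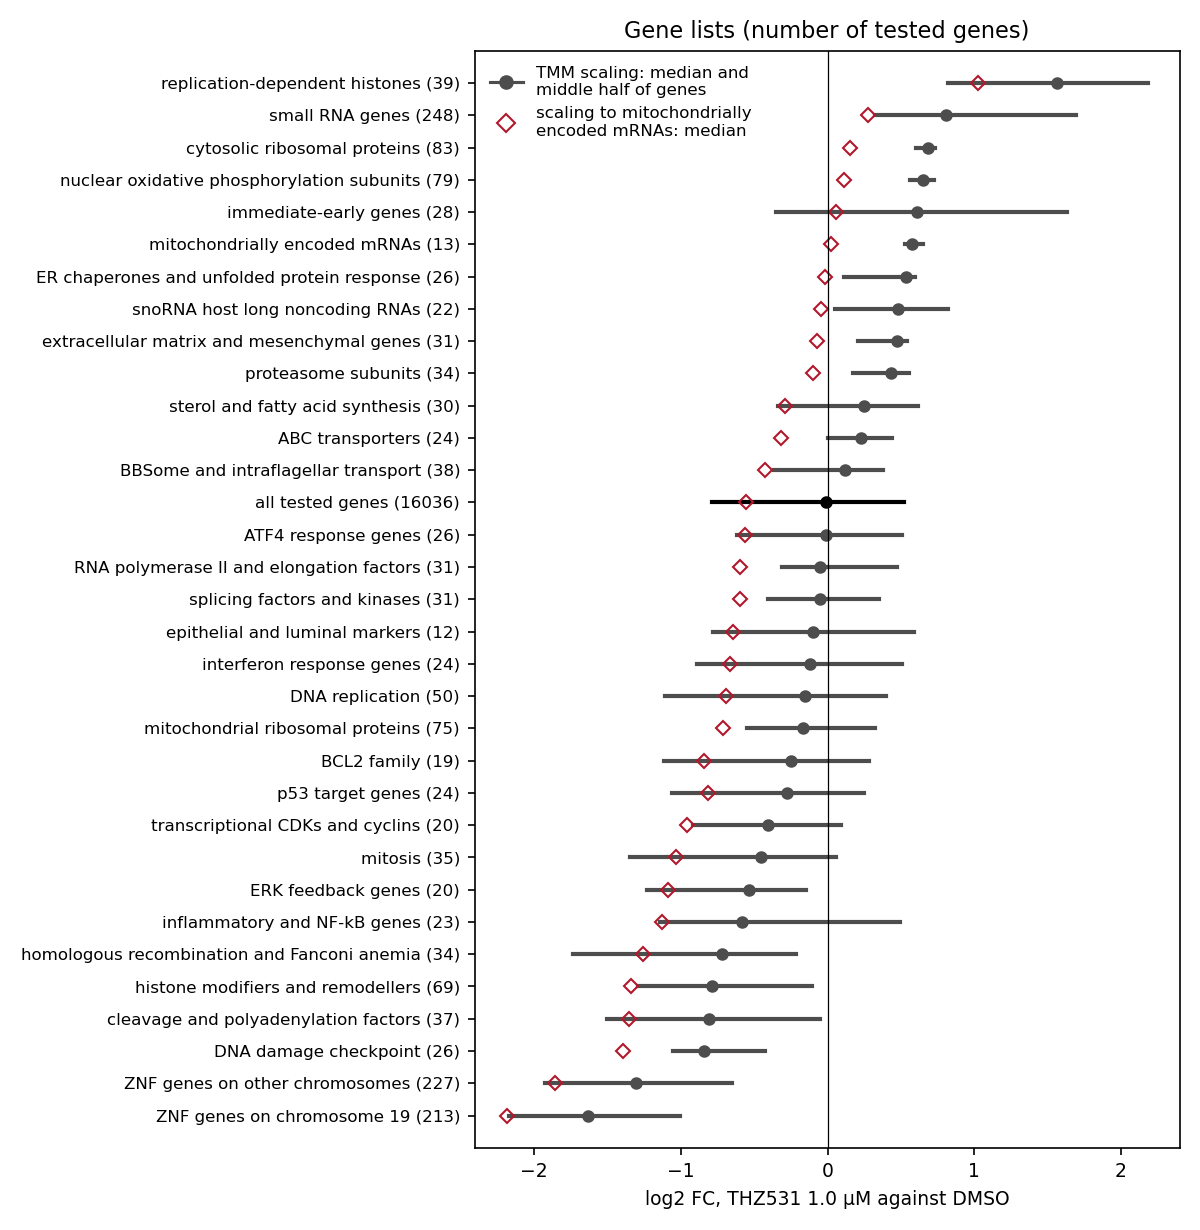
Median log2 FC with its interquartile range (dot and bar, TMM scaling) and median with mitochondrial scaling (open diamond) for 32 gene lists beside all tested genes, where mitochondrially encoded mRNAs are the reference of the latter. Zinc finger genes lie lowest (-1.64 and -1.31) and replication-dependent histones highest (1.56), and several lists near 0.5 with TMM lie near 0 with mitochondrial scaling.

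Zinc finger transcription factor genes were the gene family with the lowest median among the 32 lists. The count table held 244 genes with ZNF symbols on chromosome 19, where most of the KRAB zinc finger repressors of transposable elements are clustered, and 213 passed the count filter. Of these, 182 fell, 157 of them strongly (73.7% beside 18.9% of all genes), and 7 rose (median log2 FC -1.64, with 196 lower and 1 higher under mitochondrial scaling). Of 227 tested ZNF genes on other chromosomes (of 261 listed), 180 fell, 135 strongly, and 7 rose (median log2 FC -1.31, with 206 lower and 1 higher under mitochondrial scaling). ZNF607 measured 3.14, 3.00 and 3.19 CPM in DMSO and 0.252, 0.241 and 0.417 CPM with THZ531 (log2 FC -3.35 ± 0.19). ZNF175 (log2 FC -3.33 ± 0.20) and ZNF221 (log2 FC -3.83 ± 0.84) on chromosome 19 and ZNF619 (log2 FC -3.46 ± 0.21), ZNF19 (log2 FC -3.39 ± 0.35) and ZNF658 (log2 FC -3.13 ± 0.19) elsewhere fell by similar amounts. The value of ZNF221 was the least certain, at -5.08 to -3.28 over the fits without 1 library. The exceptions that rose strongly, ZNF296 (log2 FC 3.21 ± 0.90), ZNF467 (log2 FC 1.83 ± 0.34) and ZNF385C (log2 FC 1.003 ± 0.29), were well under 1 CPM in every DMSO library. ZNF385C did not pass with mitochondrial scaling (0.44), and ZNF296 ran from 2.65 to 4.69 over the fits without 1 library. ZNF genes can share reads with near-identical family members, and how such reads were counted is not given in the sources used here.

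Genes of chromatin regulators were also mostly lower. Of 69 histone modifier and remodeller genes, 44 fell, 29 of them strongly (42.03% beside 18.9% of all genes), and 8 rose. Their median log2 FC was -0.79, with 59 lower and 2 higher under mitochondrial scaling. KAT14, an acetyltransferase gene of the ATAC complex, measured 15.3, 16.1 and 16.0 CPM in DMSO and 1.02, 1.19 and 0.995 CPM with THZ531, with narrow groups far apart (log2 FC -3.88 ± 0.10, edgeR adjusted p = 7.8e-16). KAT14 overlaps PET117. The histone methyltransferase genes NSD1 (log2 FC -2.18 ± 0.10), SUV39H1 (-2.13 ± 0.11) and KMT2A (-1.35 ± 0.28), the deacetylase gene HDAC4 (-1.82 ± 0.11) and the acetyltransferase gene EP300 (-1.23 ± 0.27) fell. The acetyltransferase gene KAT2B (log2 FC 0.94 ± 0.065), the deacetylase gene HDAC1 (log2 FC 0.88 ± 0.067) and the remodeller gene CHD3 (log2 FC 0.88 ± 0.17) rose, the last not passing with mitochondrial scaling (0.34).

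Genes of ciliary transport changed in both directions under TMM scaling. Of 38 BBSome and intraflagellar transport genes, 12 fell and 13 rose, 31.6% and 34.2% beside 36.8% and 33.1% of all genes, with a median log2 FC of 0.12 under TMM and -0.43 with mitochondrial scaling, under which 21 lower and 0 higher genes passed. The chaperonin-like gene BBS12 measured 4.604, 4.63 and 5.45 CPM in DMSO and 0.283, 0.272 and 0.321 CPM with THZ531 (log2 FC -4.06 ± 0.18). BBS10 (log2 FC -1.84 ± 0.12) and the transport particle genes IFT70A (-2.57 ± 0.15) and IFT70B (-2.11 ± 0.18), which have closely related sequences, fell strongly too. Only 5 of the 38 genes fell strongly (13.2% beside 18.9% of all genes). None rose strongly, and the largest log2 FC was 0.79.

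Immediate-early genes, whose short transcripts are induced by growth factor and stress signals without new protein synthesis, included FOS, the gene with the largest increase among clearly expressed protein-coding genes that overlap no other gene. Of 28 such genes, 16 rose, 11 of them strongly (39.3% beside 5.77% of all genes), and 7 fell. Their median log2 FC was 0.61 with TMM and 0.058 with mitochondrial scaling, under which 11 lower and 12 higher genes passed. FOS, encoding a subunit of the AP-1 transcription factor, measured 1.34, 1.42 and 1.27 CPM in DMSO and 52.1, 75.4 and 35.5 CPM with THZ531. The treated libraries differed among themselves by more than the controls, but each was far above every control, and FOS was 40.4-fold higher (log2 FC 5.34 ± 0.23, edgeR adjusted p = 2.1e-13). EGR1, a zinc finger transcription factor gene, rose from 5.35, 7.06 and 4.79 CPM to 62.0, 65.5 and 28.3 CPM (log2 FC 3.18 ± 0.26). Replicate 3 was the lowest treated library for both genes.

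JUNB, whose product pairs with FOS, was more uniform, with 34.2, 37.0 and 34.9 CPM in DMSO and 236, 199.8 and 195 CPM with THZ531 (log2 FC 2.57 ± 0.067, edgeR adjusted p = 7.8e-16). It overlaps HOOK2. GADD45B, a stress-induced regulator gene of p38 and JNK signalling, measured 32.4, 46.6 and 36.3 CPM and 213, 201 and 188 CPM (log2 FC 2.38 ± 0.14). The groups did not overlap for either gene. FOSB (log2 FC 2.27 ± 0.25), the synaptic activity gene ARC (log2 FC 2.15 ± 0.20), the AP-1 partner gene ATF3 (log2 FC 1.93 ± 0.15) and the stress gene IER3 (log2 FC 2.85 ± 0.23), at 0.25 CPM in DMSO, rose strongly. MYC rose with a log2 FC of 0.97 ± 0.085.

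Not all members rose. FOSL1, another AP-1 gene, measured 231, 289 and 228 CPM in DMSO and 72.9, 52.5 and 67.4 CPM with THZ531 (log2 FC -1.96 ± 0.16). FOSL2 (log2 FC -1.29 ± 0.17) and the orphan nuclear receptor gene NR4A1 (log2 FC -1.60 ± 0.17) fell strongly, and JUN fell with a log2 FC of -0.80 ± 0.12. MCL1, the gene of a short-lived survival protein, fell from 267, 249.6 and 261 CPM to 137, 86.8 and 129 CPM (log2 FC -1.14 ± 0.12). TATAAA stood in the promoter window of 6 of 20 immediate-early genes with a sequence.

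Other strongly upregulated protein-coding genes under the same limits were mostly short. ID2, which encodes an inhibitor of basic helix-loop-helix factors, measured 36.5, 31.6 and 36.7 CPM in DMSO and 163, 122 and 160.5 CPM with THZ531 (log2 FC 2.09 ± 0.091). CCL2, a monocyte chemokine gene, measured 2.73, 2.56 and 2.06 CPM and 15.6, 18.0 and 13.4 CPM (log2 FC 2.68 ± 0.22). All treated libraries of both genes lay over all controls. HBEGF, encoding a ligand of EGFR, rose with a log2 FC of 1.95 ± 0.10, and the sorting nexin gene SNX32 with 3.60 ± 0.23 from 0.61 CPM. CUTA was variable, at 4.03, 4.47 and 5.04 CPM in DMSO and 23.98, 6.57 and 21.7 CPM with THZ531 (log2 FC 1.95 ± 0.61, edgeR adjusted p = 0.0076).

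Feedback genes of the ERK pathway were mostly lower. Of 20 genes, 13 fell and 2 rose, 65.0% and 10.0% beside 36.8% and 33.1% of all genes. Their median log2 FC was -0.53, with 17 lower and 1 higher under mitochondrial scaling. The only strong rise of the list was that of HBEGF (log2 FC 1.95 ± 0.10, and 1.40 with mitochondrial scaling). EGFR, the receptor gene at the top of the pathway, measured 183, 216 and 173 CPM in DMSO and 83.1, 81.3 and 67.3 CPM with THZ531 (log2 FC -1.30 ± 0.10, edgeR adjusted p = 4.0e-10). The inhibitor genes SPRED3 (log2 FC -2.15 ± 0.17) and SPRY4 (-1.30 ± 0.17) and the ETS factor gene ETV5 (-1.49 ± 0.054) fell strongly. SPRY2 fell slightly (-0.31 ± 0.10), but did not pass without THZ531 replicate 2 (-0.19), with upper-quartile scaling (-0.11) or in a fit of the 6 libraries alone (-0.28). The ERK phosphatase gene DUSP6 did not pass the test (log2 FC -0.087 ± 0.091, edgeR adjusted p = 0.41), but passed as lower with mitochondrial scaling (-0.64) and with library size alone (-0.35).

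Inflammatory genes showed opposite changes within the list. Of 23 tested genes, 11 fell and 5 rose, 47.8% and 21.7% beside 36.8% and 33.1% of all genes. Their median log2 FC was -0.58, with 15 lower and 3 higher under mitochondrial scaling. RELA, the main transactivating NF-kB subunit gene (log2 FC -1.48 ± 0.065), the inhibitor gene NFKBIE (-2.05 ± 0.16), the cytokine gene LIF (-1.81 ± 0.16) and the survival gene BIRC3 (-1.85 ± 0.15) fell strongly. Besides CCL2, NFKBIZ (log2 FC 2.06 ± 0.30) and the chemokine gene CXCL3 (log2 FC 1.46 ± 0.35) rose strongly from levels under 1 CPM. The cytokine gene IL6 rose with TMM scaling (log2 FC 0.68 ± 0.17) and did not pass with mitochondrial scaling (0.13). CXCL8 did not pass the test (log2 FC 0.32 ± 0.16, edgeR adjusted p = 0.082), but passed as higher with upper-quartile scaling (0.52), in a fit of the 6 libraries alone (0.34), without DMSO replicate 1 (0.42) and without THZ531 replicate 3 (0.41).

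Of 24 tested interferon response genes, 9 fell and 7 rose, 37.5% and 29.2% beside 36.8% and 33.1% of all genes (median log2 FC -0.12, with 15 lower and 1 higher under mitochondrial scaling). The transcription factor genes IRF9 (log2 FC -1.82 ± 0.070) and IRF1 (-1.28 ± 0.11), the RNA sensor gene RIGI (-1.17 ± 0.10) and IFIT5 (-2.44 ± 0.17) fell strongly. ISG15 (log2 FC 0.94 ± 0.11), IFI6 (0.74 ± 0.15) and BST2 (0.73 ± 0.065) rose, but IFI6 and BST2 did not pass with mitochondrial scaling (0.22 and 0.19).

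Targets of p53 also changed in both directions. Of 24 genes, 13 fell and 6 rose (median log2 FC -0.27, with 18 lower and 2 higher under mitochondrial scaling). CDKN1A, encoding the cell cycle inhibitor p21, measured 15.1, 14.2 and 13.8 CPM in DMSO and 30.5, 29.1 and 28.5 CPM with THZ531 (log2 FC 1.03 ± 0.093). MDM2, the ubiquitin ligase gene that restrains p53, measured 68.1, 60.5 and 63.5 CPM and 23.6, 14.7 and 20.8 CPM (log2 FC -1.70 ± 0.14). These 2 p53 targets thus moved in opposite directions, each without overlap of the groups. GADD45A (log2 FC 1.26 ± 0.13) rose and FAS (log2 FC -1.67 ± 0.077), AEN (log2 FC -1.78 ± 0.14) and the repair gene XPC (log2 FC -1.49 ± 0.10) fell.

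Among 19 BCL2 family and apoptosis regulator genes, 10 fell and 5 rose, 52.6% and 26.3% beside 36.8% and 33.1% of all genes. Their median log2 FC was -0.25, with 11 lower and 0 higher under mitochondrial scaling. Besides MCL1, the survival genes BCL2 (log2 FC -2.16 ± 0.26) and BCL2L1 (log2 FC -1.21 ± 0.073) fell strongly. The death-promoting genes BBC3, which encodes PUMA (log2 FC 1.10 ± 0.32), and PMAIP1, which encodes NOXA (0.83 ± 0.11), rose with TMM scaling but did not pass with mitochondrial scaling (0.55 and 0.28), while BMF fell (-1.68 ± 0.23). BCL2L11 did not pass the test (log2 FC 0.22 ± 0.15, edgeR adjusted p = 0.18), but passed as higher with upper-quartile scaling (0.42) and without THZ531 replicate 2 (0.43).

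Stress response genes of the ATF4 programme changed in both directions at shares near those of all genes. Of 26 genes, 9 fell and 9 rose, 34.6% and 34.6% beside 36.8% and 33.1%, and mitochondrial scaling gave 15 lower and 1 higher. Strong falls numbered 5 (19.2% beside 18.9% of all genes) and strong rises 1, and the largest log2 FC of the list was 1.93. The transcription factor gene DDIT3, which encodes CHOP (log2 FC -1.81 ± 0.27), the pseudokinase gene TRIB3 (-1.19 ± 0.29) and the glutathione-degrading enzyme gene CHAC1 (-1.08 ± 0.31) fell strongly, and the serine synthesis gene PHGDH rose (0.73 ± 0.10), the last not passing with mitochondrial scaling (0.20). ATF4 itself did not pass the test (log2 FC -0.12 ± 0.20, edgeR adjusted p = 0.59), but passed as lower with mitochondrial scaling (-0.67).

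Genes for abundant housekeeping proteins rose together by a small amount under TMM scaling. Of all genes in the highest of 4 classes by mean level, 56.3% rose and 24.5% fell. Of 83 cytosolic ribosomal protein genes, 80 rose and 1 fell, with a median log2 FC of 0.69 and 0.15 with mitochondrial scaling, under which 2 lower and 1 higher genes passed. Their mRNAs took 5.11% ± 0.263 of counts in DMSO and 6.81% ± 0.693 with THZ531. RPL41 rose with a log2 FC of 0.89 ± 0.10 but did not pass with mitochondrial scaling (0.36), and the single gene that fell was RPL7L1 (-0.47 ± 0.12), a paralog of RPL7. Of 79 nuclear oxidative phosphorylation genes, 72 rose and 1 fell (median log2 FC 0.65, and 0.11 with mitochondrial scaling, under which 4 lower and 2 higher genes passed). COX6C, a cytochrome c oxidase subunit gene, rose (log2 FC 0.96 ± 0.074), and NDUFV3, a complex I subunit gene, was the only one to fall (-1.27 ± 0.072). All 13 mitochondrially encoded mRNAs rose under TMM, with a median log2 FC of 0.58.

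Mitochondrial ribosomal protein genes changed in both directions under TMM scaling. Of 75 mitochondrial ribosomal protein genes, 34 fell and 25 rose, 45.3% and 33.3% beside 36.8% and 33.1% of all genes. Their median log2 FC was -0.17, with 50 lower and 1 higher under mitochondrial scaling. Only 7 fell strongly (9.33% beside 18.9% of all genes, and 24.5% and 5.36% of the third and highest of 4 classes by mean level). MRPS31 (log2 FC -2.27 ± 0.11), MRPL36 (log2 FC -1.52 ± 0.11) and MRPL16 (log2 FC -1.47 ± 0.075) fell strongly, and MRPL23 (log2 FC 0.91 ± 0.15) and MRPL33 (log2 FC 0.69 ± 0.10) rose but did not pass with mitochondrial scaling (0.39 and 0.16). Of 34 proteasome genes, 25 rose and 4 fell, 73.5% and 11.8% beside 56.3% and 24.5% of genes in the highest of these classes. Their median log2 FC of 0.44 turned to -0.10 with mitochondrial scaling, under which 9 lower and 0 higher genes passed. PSMA7 rose (log2 FC 0.86 ± 0.11) but did not pass with mitochondrial scaling (0.33), and PSMD5, an assembly chaperone gene, fell strongly (-1.20 ± 0.079).

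Secretory and matrix gene lists had medians above 0 with TMM scaling and near 0 with mitochondrial scaling. Of 26 ER chaperone and unfolded protein response genes, 19 rose and 4 fell, 73.1% and 15.4% beside 33.1% and 36.8% of all genes. In the highest of 4 classes by mean level, 56.3% of genes rose and 24.5% fell. The median log2 FC of the ER list was 0.53, or -0.018 with mitochondrial scaling, under which 8 lower and 0 higher genes passed. HSPA5, the BiP chaperone gene, rose (log2 FC 0.58 ± 0.19) but did not pass with mitochondrial scaling (0.033), while XBP1, the transcription factor gene of the response, fell strongly (-1.58 ± 0.15). Of 31 matrix and mesenchymal genes, 16 rose and 6 fell, 51.6% and 19.4% beside 33.1% and 36.8% of all genes. Their median log2 FC was 0.48, or -0.071 with mitochondrial scaling, under which 8 lower and 0 higher genes passed. COL1A1, a collagen gene, rose with a log2 FC of 0.54 ± 0.21 with TMM and was at 0.0068 with mitochondrial scaling, and did not pass without DMSO replicate 1 (0.44), DMSO replicate 3 (0.51) or THZ531 replicate 1 (0.49), while VIM rose with a log2 FC of 0.49 ± 0.039 with TMM and was at -0.048. The transcription factor genes of mesenchymal identity TWIST1 (log2 FC -1.33 ± 0.12), TWIST2 (-1.77 ± 0.082) and ZEB2 (-1.03 ± 0.13) fell strongly.

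Of 30 sterol and fatty acid synthesis genes, 16 rose and 10 fell, 53.3% and 33.3% beside 33.1% and 36.8% of all genes. Strong falls numbered 4 (13.3% beside 18.9%). The median log2 FC was 0.25 under TMM and -0.29 with mitochondrial scaling, under which 14 lower and 1 higher genes passed. INSIG1, a feedback-regulated gene, fell strongly (log2 FC -1.06 ± 0.084), and MVK, encoding mevalonate kinase, did so too (-2.19 ± 0.12). SREBF2, the transcription factor gene of the pathway, and the desaturase gene SCD rose (log2 FC 0.88 ± 0.062 and 0.79 ± 0.079), and SCD did not pass with mitochondrial scaling (0.25).

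ABC transporter genes were examined because drug efflux can limit inhibitor exposure. Of 24 tested genes, 12 rose and 3 fell, 50.0% and 12.5% beside 33.1% and 36.8% of all genes. The median log2 FC was 0.23 under TMM and -0.32 with mitochondrial scaling, under which 10 lower and 1 higher genes passed. ABCG2, a multidrug efflux pump gene, measured 26.0, 20.8 and 24.9 CPM in DMSO and 27.1, 29.5 and 28.7 CPM with THZ531. Its treated libraries lay slightly above the controls, but it did not pass the test (log2 FC 0.25 ± 0.12, edgeR adjusted p = 0.065), and with mitochondrial scaling its log2 FC was -0.30. It passed with upper-quartile scaling (log2 FC 0.45), and at log2 FC of 0.26 to 0.32 with DESeq2, a minimum of 10 counts, the 6 libraries alone, halved counts, the replicate block and without DMSO replicate 1, so its call depends on the processing. ABCC1 did not pass either (log2 FC 0.36 ± 0.21, edgeR adjusted p = 0.14), but passed as higher with upper-quartile scaling (0.56) and in a fit of the 6 libraries alone (0.39). ABCF3 (log2 FC -1.25 ± 0.12) fell strongly and ABCA2 (log2 FC 0.93 ± 0.16) rose.

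Replication-dependent histone genes, whose mRNAs normally end in a stem-loop and carry no poly(A) tail, had the highest median of all lists. Of 69 such genes 39 passed the count filter, and of these 32 rose, 25 of them strongly (median log2 FC 1.56, or 1.03 with mitochondrial scaling, under which 18 of them were higher). H4C3 measured 0.177, 0.267 and 0.298 CPM in DMSO and 2.55, 3.89 and 2.39 CPM with THZ531 (log2 FC 3.57 ± 0.36). H3C1, whose promoter is printed with that of FOS, measured 0.137, 0.0863 and 0.179 CPM and 1.13, 1.25 and 1.28 CPM (log2 FC 3.17 ± 0.26). Every treated library was several-fold over every control in both genes, yet the levels stayed low in these poly(A)-selected libraries. Histone genes can pass the filter through the treated libraries alone, so the count among tested genes is a description. TATAAA occurred in 25 of 35 histone promoter windows (71.4%).

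Small RNA genes showed the same limit. Of 2388 listed genes only 248 passed the count filter, of which 134 rose and 10 fell (median log2 FC 0.81, with 22 lower and 63 higher under mitochondrial scaling). Strong rises were seen in 20 of 24 tested snRNA, 44 of 139 snoRNA and 25 of 49 miRNA genes. RNU12, the U12 spliceosomal RNA gene, had 1, 0 and 0 counts in the DMSO libraries and 124, 202 and 161 with THZ531 (1.0 μM). MIR195 had 0, 0 and 0 counts in DMSO and 26, 33 and 27 with THZ531, and RNU1-27P and MIR3193 likewise had no count in DMSO. Reads of this kind in poly(A)-selected libraries can also come from longer transcripts over the same locus, which was not tested. Of 22 long noncoding host genes of snoRNAs, 14 rose and 3 fell (median log2 FC 0.48, or -0.046 with mitochondrial scaling, under which 7 lower and 5 higher genes passed). SNHG9 (log2 FC 1.38 ± 0.19) and SNHG19 (log2 FC 1.05 ± 0.12) rose strongly, and GAS5 did not pass the test (0.020 ± 0.10, edgeR adjusted p = 0.87).

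The share of strongly changed genes varied with gene length. Strongly upregulated genes made up 13.2% of the 3951 genes under 10 kb, 4.79% of those from 10 to 30 kb and 1.60% to 2.29% of longer ones. Of the 521 such genes under 10 kb, 420 lay in the lowest of 4 classes by mean level. The share under 10 kb was 28.1% in that class and 8.06%, 1.41% and 1.35% in the higher ones. Within the lowest class it was 17.6% from 10 to 30 kb and 6.15% to 8.75% in longer genes. Among all protein-coding genes it was 7.64% under 10 kb, 3.73% from 10 to 30 kb and 1.36% to 1.89% in longer ones. Genes of very low level can pass the count filter through the treated libraries alone. Strongly downregulated genes made up 15.8% under 10 kb, 21.5% from 10 to 30 kb, 19.98% from 30 to 100 kb, 17.9% from 100 to 300 kb and 15.9% of the 611 genes of 300 kb and over. Across 15857 genes Spearman's rho between log2 FC and genomic span was -0.16, and across 15275 genes it was -0.031 with exon number; genes of a library are not independent replicates. The median span was 28.4 kb for strongly downregulated and 6.43 kb for strongly upregulated genes. Genes under 10 kb took 26.6% ± 0.509 of counts in DMSO and 30.6% ± 1.23 with THZ531.

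Very long genes changed in both directions. The transcription factor gene MECOM (log2 FC -2.81 ± 0.14), the RhoGAP gene STARD13 (log2 FC -2.61 ± 0.12), KIAA1217 (log2 FC -2.22 ± 0.18) and PUDP (log2 FC -2.18 ± 0.11) showed the largest falls among genes of 300 kb and over. NOS1AP (log2 FC 1.20 ± 0.25), the cell adhesion gene NTM (log2 FC 0.93 ± 0.079), MACROD2 (log2 FC 0.89 ± 0.12) and the mechanosensitive channel gene PIEZO2 (log2 FC 0.86 ± 0.081) showed the largest rises, and MACROD2 did not pass with mitochondrial scaling (0.34). All 8 overlap other annotated genes.

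The share of strongly changed protein-coding genes varied with exon number. Of 329 genes with 1 exon, 28.3% were strongly downregulated and 13.4% strongly upregulated. The share of strongly downregulated genes was 26.1% with 2 to 5 exons, 19.5% with 6 to 10, 18.3% with 11 to 20 and 13.7% with over 20 exons. Without ZNF genes, an alternative chosen after seeing the data, these shares were 28.05%, 22.5%, 18.0%, 18.1% and 13.6%. By the mean level over the 6 libraries, cut into 4 classes of 4009 genes, strong downregulation was found in 14.02% of the lowest class, 31.6% and 24.5% of the middle classes and 5.36% of the highest. Strong upregulation was found in 18.8% of the lowest and 0.40% of the highest class.

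**Figure D3:**
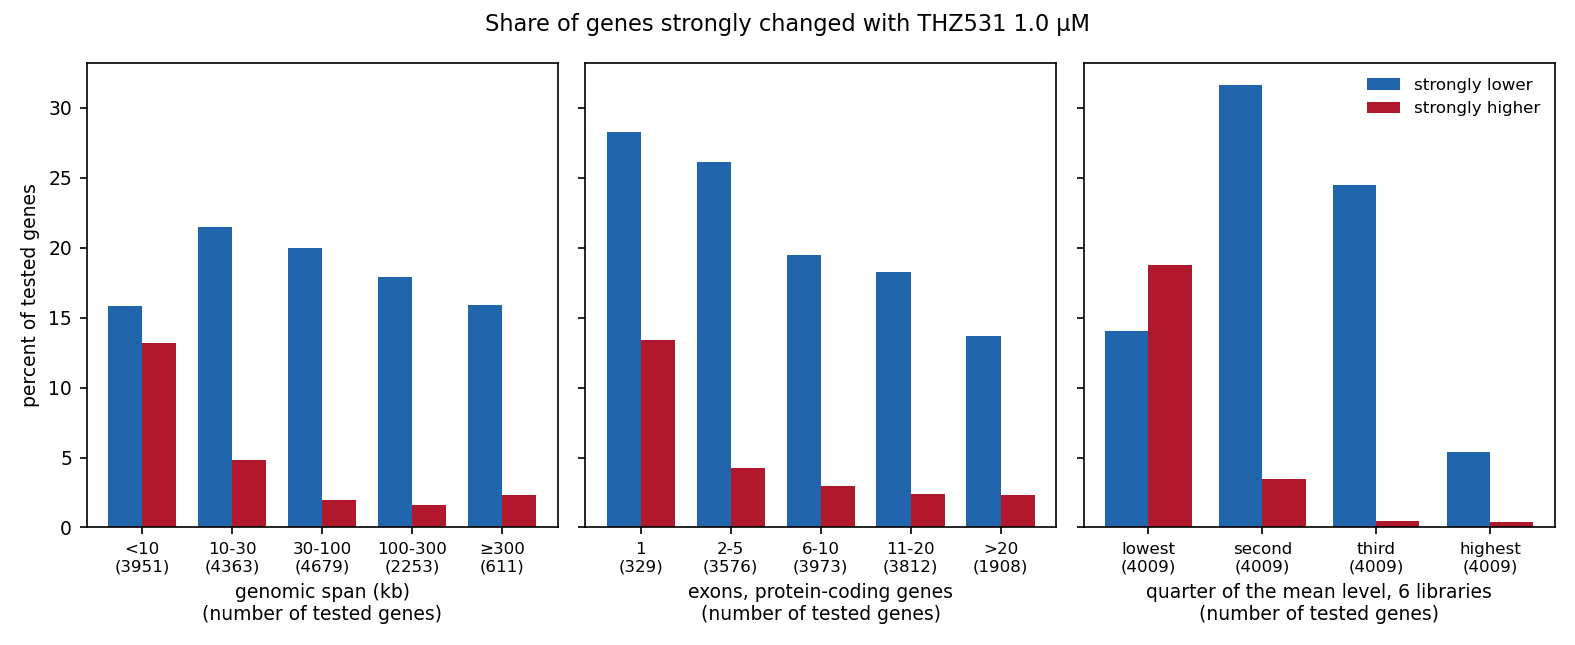
Percent of tested genes strongly downregulated (blue) and strongly upregulated (red) by genomic span, by exon number of protein-coding genes, and by class of the mean level over the 6 libraries (4009 genes each). Strong upregulation is highest in genes under 10 kb (13.2%), with 1 exon (13.4%) and in the lowest level class (18.8%). Strong downregulation falls from 28.3% to 13.7% with exon number in protein-coding genes.

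The low dose of THZ531 provided a reference for these changes. THZ531 (0.1 μM) against the same DMSO libraries lowered 4.31% and raised 1.78% of genes by the test, with 119 strongly downregulated (0.742%) and 23 strongly upregulated genes (0.143%). The high dose against the low dose lowered 35.9% and raised 34.3%, with 2820 (17.6%) and 1096 (6.83%) changed strongly. KRCC1 already fell at the low dose, to 16.1, 15.7 and 13.0 CPM (log2 FC -1.17 ± 0.11 against DMSO, edgeR adjusted p = 1.8e-06), and fell further at the high dose (log2 FC -2.84 ± 0.12 against the low dose). KAT14 showed the same order, with 9.41, 9.89 and 9.97 CPM at the low dose (log2 FC -0.70 ± 0.087 against DMSO and -3.19 ± 0.10 between doses). BRCA1 differed, since its log2 FC against DMSO was -0.84 ± 0.12 at the low dose and -0.90 ± 0.12 at the high dose, and the difference between doses did not pass the test (log2 FC -0.057 ± 0.12, edgeR adjusted p = 0.68). BRCA2 was at -0.32 ± 0.17 at the low dose, which did not pass the test (edgeR adjusted p = 0.32), and fell between doses (log2 FC -1.94 ± 0.18).

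CDK12 measured 66.3, 74.7 and 78.9 CPM at the low dose, above DMSO (log2 FC 0.50 ± 0.14, edgeR adjusted p = 0.039), and thus lay above the controls at 0.1 μM and below them at 1.0 μM. FOS measured 2.02, 1.97 and 1.51 CPM at the low dose and did not pass the test there (edgeR adjusted p = 0.28), and rose between doses (log2 FC 4.89 ± 0.23). JUNB and ID2 rose slightly at the low dose (log2 FC 0.31 ± 0.064 and 0.39 ± 0.088) and strongly between doses (2.26 ± 0.067 and 1.70 ± 0.090). CUTA measured 5.27, 4.86 and 25.5 CPM at the low dose and the difference between doses did not pass the test (log2 FC 0.55 ± 0.58, edgeR adjusted p = 0.4).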

How the data were processed

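RNA was isolated from Hs578T cells, with independent experiments as replicates per the study's supplementary text. Per the labels and methods, the authors aligned paired-end reads to GRCh38 with HISAT2 (2.1.0), counted them per gene with featureCounts and deposited a table of raw counts without normalization. The annotation release, the strand and multi-mapping settings, and whether pairs or ends were counted are not given in the sources used here. Even numbers made up 61.6% to 66.4% of counts from 1 to 20, so halved counts were tried as an alternative. Normalized values and fold changes of the authors were not used.

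Groups followed the sample labels. The counts of all 21 libraries (7 groups of 3) were fitted with edgeR 4.0.16 (limma 3.58.1, R 4.3.3), with 1 mean per group and no covariate, filterByExpr, TMM scaling and quasi-likelihood F-tests, and p-values were adjusted by Benjamini-Hochberg over 16036 genes. The lapatinib and nilotinib groups entered the count filter, the scaling and the estimate of spread, but not the group means compared. With the 6 libraries alone, 15228 genes passed the filter. DESeq2 1.42.0 was an alternative. On simulated counts for 15408 genes of this comparison, edgeR found all 200 genes that had been changed, with 2 false calls. Those genes were clearly expressed and changed by more than the log2 FC limit, up and down in equal number. The simulation therefore does not cover a broad and unequal change, or genes of very low level, as in these data. Replicates differed by more than sampling noise (chi-square per degree of freedom 13.7 to 80.9), with correlations of log2 CPM of 0.985 to 0.998. CPM values are TMM-scaled unless stated, and errors of log2 FC are standard errors.

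Genes were joined to RefSeq by Entrez gene ID (27745 of 28395 genes, 99.98% of counts) for span and class, with coordinates on GRCh38.p14. Promoter sequences were joined by the same ID, and exon numbers came from the canonical transcripts of GENCODE. The comparison and the gene lists were chosen with earlier results of these data known, so list counts and medians are descriptions and no list was tested. The named genes followed a rule. It took the 10 largest falls and rises among protein-coding genes whose log2 CPM averaged at least 1, with non-overlapping groups and no overlapping gene, key members of each list with up to 4 falls and 4 rises, and the largest changes among noncoding genes, in CPM and among genes of 300 kb and over; the text names a part of them. Tables and figures were made with Python 3.11.15, pandas 2.3.3 and matplotlib 3.10.9.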

Additional observations from a re-analysis of the deposited data

How the results depend on the processing

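Strongly downregulated genes numbered 3027 and strongly upregulated genes 925 as reported. The first count was 2029 to 5357 and the second 435 to 1439 over the alternatives. Scaling to mitochondrially encoded mRNAs gave 5357 down and 494 up, and upper-quartile scaling gave 2364 down and 1439 up. A minimum of 10 counts in each of the 6 libraries compared left 435 upregulated genes, with fewer genes tested (13964), and a test against a log2 FC of 1 (glmTreat) gave 2029 and 437. Leaving out each of the 6 libraries in turn gave 2816 to 3207 down and 862 to 965 up. DESeq2 gave 2942 and 982, and the other settings (median-of-ratios or library-size scaling, no filter, the 6 libraries alone, halved counts) 2882 to 4041 and 658 to 1017.

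With a replicate block in the fit the counts were 3015 and 931. The deviations of same-numbered DMSO and THZ531 libraries from their group means over 8794 genes correlated at 0.0062, -0.16 and 0.24. Differently numbered pairs correlated at -0.61 to 0.36. Deviations within a group of 3 depend on each other, so these values cannot tell whether same-numbered libraries came from a shared experiment. The block moved the call of 1 of the 208 genes named, ABCG2, which passed with it (log2 FC 0.26).

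The 208 named genes were refitted under 17 alternatives, and the cause of each change was not tested. With mitochondrial scaling the log2 FC turned negative for ABCC1 (-0.20), ABCG2 (-0.30), ACTB (-0.011), ATM (-0.012), BCL2L11 (-0.34), CLK1 (-0.42), CXCL8 (-0.24), EEF1A1 (-0.096), FANCA (-0.00064), FANCI (-0.18), GAS5 (-0.52), HEXIM1 (-0.0048), PCNA (-0.047), RBBP8 (-0.16) and VIM (-0.048), and 30 further genes no longer passed. With library size alone it turned negative for ABCG2 (-0.010), BCL2L11 (-0.038), CLK1 (-0.13) and GAS5 (-0.24). With upper-quartile scaling it turned positive for ATF4 (0.079), DUSP6 (0.11) and FANCD2 (0.16). Over the fits without 1 library the sign changed for genes near 0, namely CLK1 (-0.022 to 0.30), DUSP6 (-0.19 to 0.00017) and GAS5 (-0.049 to 0.074). Depth limited genes under about 1 CPM, for which 1 count is worth about 0.01 CPM.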

Other observations

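Whether more long noncoding RNA genes were strongly higher or strongly lower depended on the scaling. Of 1405 tested long noncoding RNA genes, 254 rose strongly and 136 fell strongly with THZ531 (1.0 μM) under TMM, and 126 and 278 did so with mitochondrial scaling. Of 13747 protein-coding genes 460 (3.35%) rose strongly and 2786 (20.3%) fell strongly under TMM. Genes of very low level could pass the count filter through the treated libraries alone, so these shares are descriptions. ZNF143-AS1 measured 0.548, 0.716 and 0.613 CPM in DMSO and 7.59, 6.32 and 6.03 CPM with THZ531 (log2 FC 3.41 ± 0.19). KMT2E-AS1, a transcript beside a histone methyltransferase gene, measured 1.06, 1.16 and 1.17 CPM and 5.89, 5.44 and 4.86 CPM (log2 FC 2.25 ± 0.15). The treated libraries lay above the controls for both genes. MGC12916 (log2 FC 2.90 ± 0.25), LOC100132356 (log2 FC 1.91 ± 0.19) and LINC01003 (log2 FC 1.58 ± 0.13) also rose. Reads of antisense genes cannot be told apart from those of a partner gene in libraries without strand.

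The largest falls of noncoding genes under the same limits were in FAM86C2P (log2 FC -2.54 ± 0.13), GSEC (log2 FC -2.43 ± 0.20), LINC00942 (log2 FC -2.39 ± 0.16), NRAV (log2 FC -2.29 ± 0.12) and ZNF788P (log2 FC -2.17 ± 0.22). FAM86C2P and ZNF788P are pseudogenes and may share reads with related genes. GSEC measured 5.21, 4.59 and 5.14 CPM in DMSO and 0.745, 1.18 and 0.845 CPM with THZ531, so that the groups did not overlap.

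Abundant mRNAs gained the most in absolute CPM under TMM scaling. ACTB, the cytoplasmic actin gene, and EEF1A1, a translation elongation factor gene, rose with log2 FC of 0.53 ± 0.043 and 0.44 ± 0.087 with TMM and were at -0.011 and -0.10 with mitochondrial scaling. GAPDH, a glycolytic enzyme gene, and FTL, the ferritin light chain gene, rose under TMM and did not pass the test with mitochondrial scaling (log2 FC 0.79 ± 0.047 and 0.81 ± 0.070 with TMM, 0.25 and 0.28 with mitochondrial scaling). The 20 most abundant genes of each library together took 10.2% ± 0.251 of counts in DMSO and 12.4% ± 0.0934 with THZ531 (mean ± SD, n = 3).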
